A study of Mus musculus with 24 samples.

Results

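The proximal end of the mandible (the rear of the lower jaw) of Tgfbr2 mutant mouse embryos was compared with the same piece from control littermates at embryonic day 14.5. The comparison holds 6 of the 24 arrays of the series, 3 labelled Mutant_Tgfbr2 P_Mandible and 3 labelled Control_Tgfbr2 P_Mandible, and was taken over every probe set with a single gene symbol (34945 probe sets). The mutants came from a cross of Wnt1-Cre Tgfbr2 fl/+ mice with Tgfbr2 fl/fl mice and were picked out by their cleft palate and calvarial defect. Wnt1-Cre acts in cells that descend from the neural crest, so muscle fibres, endothelium, blood and most of the surface epithelium of the same piece keep the receptor. The sources used here do not give the alleles of the control littermates, and all groups carry the strain label C57B6. The labels do not say whether an array holds 1 embryo or several, so the p-values cover only the spread among these samples, and part of it may be technical. In these bulk pieces, fewer cells of a type and less RNA per cell cannot be told apart.

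Transforming growth factor beta (TGF-β) ligands bind the type II receptor, which Tgfbr2 encodes. That receptor activates the type I receptor Tgfbr1, which in turn phosphorylates Smad2 and Smad3. In jaw mesenchyme the pathway is known for its part in tendon formation, matrix production and the growth of skeletal progenitors. The proximal mandible at this stage holds Meckel's cartilage, forming bone, the attachments of the chewing muscles and the mesenchyme from which the jaw joint will develop.

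The defining markers of the labelled tissue were present. All 5 markers of mandibular mesenchyme (Dlx5, Dlx6, Hand2, Msx1 and Prrx1) lay above the array median on all 6 arrays, as did all 5 chondrocyte markers and all 3 osteoblast markers with a probe set. The 2 salivary gland markers with a probe set, Aqp5 and Elf5, were not above the median on all 6 arrays, and neither were the nasal markers Cnga2 and Bpifa1. The other 2 nasal markers were above it, Omp barely (7.01 to 7.08 in mutants and 7.02 to 7.07 in controls) and Gng8 by more (7.53 to 7.70 in mutants and 7.42 to 7.83 in controls). The arrays of a group were not alike in tissue content. The mean of the cartilage list, centred over the 6 arrays, was 0.19, 0.75 and 0.43 (log2) in the mutants, against -0.07, 0.20 and -1.50 in the controls, so control 3 stood apart on its low side. Control 3 also had the highest mean of the neuron list, 1.30. That mean lay between -0.61 and -0.16 in the mutants, and was -0.36 in control 1 and 0.01 in control 2. The skeletal muscle list was at -0.36, -0.94 and -0.33 in the mutants and at 0.81, -0.33 and 1.15 in the controls, where control 2 lay within the mutants' range. Xist, which is expressed from the inactive X chromosome of females, was 12.96, 12.70 and 12.98 in mutants, against 13.40, 12.43 and 6.38 in controls, while the Y-linked gene Eif2s3y was between 7.66 and 9.98 in all 6.

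Relative to controls, the proximal mandible of the mutants had lower levels of elastic fibre genes (Fbln5, Mfap4, Eln, Fbn2), of the tendon genes Scx, Fmod and Thbs4, and of many genes of DNA replication and mitosis. It had higher levels of the ligand gene Tgfb2, of the matrix genes Vit, Sned1 and Efemp1, and of 4 genes of the hypoxia and glycolysis list. By limma with Benjamini-Hochberg adjustment over 12811 genes, 556 genes passed an adjusted p of 0.05 (4.34%), of which 163 (1.27%) were higher and 393 (3.07%) lower in mutants. Most of the changes were small. The median difference was -0.36 (log2) among the genes that fell and 0.50 among those that rose, and 33 genes fell and 20 rose by more than 1. The values of the 3 mutants and the 3 controls did not overlap for 550 of the 556, against 3102 of all genes tested (24.2%). The fit treats the replicate numbers as names only. With the replicate number as a block 1356 genes passed, 378 higher and 978 lower, among them all 556. The same block fitted on the 6 proximal mandible arrays alone gave 503, 223 higher and 280 lower, which held 200 of the 556. The total depended on single arrays: 125 genes passed without control 3, 164 without mutant 1, 272 without control 1, 295 without control 2, 442 without mutant 3 and 535 without mutant 2. The split between directions depended on scaling, with 258 higher and 310 lower after quantile normalization and 162 higher and 237 lower after centring on the array median.

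**Figure D1:**
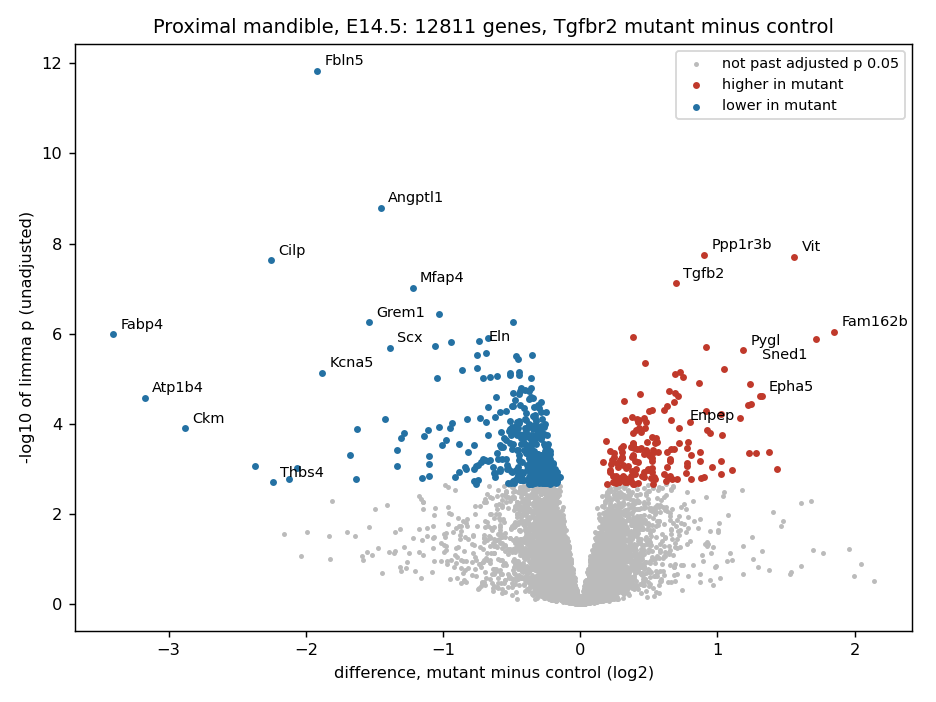
Difference between mutant and control proximal mandible (log2, x axis) against the limma p-value (-log10, unadjusted, y axis) for 12811 genes, with 163 genes that passed an adjusted p of 0.05 higher in mutants in red and 393 lower in blue. Fbln5 has the smallest p, and Fabp4, at -3.40, is the largest fall.

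The targeted gene gave no check of the labels, because the sources used here do not name the deleted exon. The brightest Tgfbr2 probe set read 12.21, 12.26 and 12.30 in mutants, against 11.95, 11.89 and 11.95 in controls. The mutants were higher, with no overlap, by 0.32 ± 0.09 (SE, adjusted p = 0.0472 by limma). That call was lost when any 1 of the 6 arrays was left out (adjusted p between 0.0793 and 0.139) with differences of 0.30 to 0.35. A dimmer Tgfbr2 probe set read 8.06, 8.07 and 7.82 in mutants against 7.77, 7.68 and 7.62 in controls.

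Among the 24 tested genes of TGF-β ligands, receptors and Smads, 3 rose (against 1.27% of all genes) and 0 fell, with a median difference of 0.02 against -0.04 over all genes. Tgfb2, which encodes a TGF-β ligand, read 11.85, 11.94 and 11.93 in mutants, against 11.29, 11.22 and 11.12 in controls. All mutants lay above all controls, and the difference of 0.69 ± 0.08 (SE, limma adjusted p = 0.000163) is a 1.62-fold rise. All 4 Tgfb2 probe sets passed, at 0.69 to 0.86. The other ligands did not pass: Tgfb1 differed by -0.07 ± 0.22 and Tgfb3 by 0.12 ± 0.09. Eng, a co-receptor made mainly by endothelium, was higher by 0.26 ± 0.07 (limma adjusted p = 0.0407), a call lost on leaving out any 1 of the 6 arrays (0.23 to 0.29, adjusted p between 0.0523 and 0.160). The type I receptor Tgfbr1 (0.09 ± 0.11), the co-receptor Tgfbr3 (0.48 ± 0.23), the signal transducer Smad3 (0.08 ± 0.07) and the inhibitory Smad7 (0.14 ± 0.13) did not pass. Of 30 genes known to respond to TGF-β, Snai2 rose, Scx fell and 28 did not pass (6.67% called, against 4.34% of all genes). Snai2, a transcription factor of migrating neural crest, was at 12.33, 12.50 and 12.59 in mutants, against 12.05, 12.28 and 12.15 in controls. Its rise of 0.31 ± 0.08 (limma adjusted p = 0.0301) was lost on leaving out mutant 2, mutant 3, control 1 or control 3 (0.26 to 0.31). Of 16 genes that store or activate latent TGF-β, Fbn2 alone passed (6.25%, against 4.34% of all genes). Ltbp1, a latent TGF-β binding protein, was at -0.42 (limma adjusted p = 0.0612, and 0.0370 with the replicate number as a block).

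Elastic fibre genes held the change with the smallest p of the comparison. Of 15 tested, 4 fell (against 3.07% of all genes) and 1 rose, and the median difference of the list was -0.38, against -0.04 over all genes. Fbln5, which encodes fibulin-5, a protein needed to assemble elastin on microfibrils, read 9.32, 9.49 and 9.63 in mutants, against 11.37, 11.40 and 11.43 in controls. Every mutant lay far below every control, and the fall of 1.92 ± 0.11 on the log2 scale (limma adjusted p = 1.9e-08) is 3.78-fold. Mfap4, a microfibril-associated protein of elastic tissue, read 10.54, 10.72 and 10.83 in mutants, against 12.01, 11.90 and 11.85 in controls. The groups were again apart, by -1.22 ± 0.14 (limma adjusted p = 0.000173). Eln, the gene of elastin itself, read 9.99, 10.05 and 10.17 in mutants, against 11.02, 10.73 and 10.65 in controls. It fell by 0.74 ± 0.11 (limma adjusted p = 0.00117), and both of its probe sets passed. Fbln5, Mfap4 and Eln passed in every alternative run.

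Fbn2, the microfibril protein fibrillin-2, differed by -0.50 ± 0.13 (limma adjusted p = 0.0364), with 1 of its 2 probe sets past the threshold. It no longer passed without mutant 1, mutant 2 or any 1 of the controls (-0.44 to -0.53). Nor did it pass with the muscle and cartilage list means as covariates. Efemp1, which encodes fibulin-3, read 11.70, 11.84 and 11.80 in mutants, against 10.55, 10.82 and 10.88 in controls. It rose by 1.03 ± 0.27 (limma adjusted p = 0.0384), opposite to its relative fibulin-5, and did not pass on leaving out any 1 of the 6 arrays (0.93 to 1.09). With the pieces of a genotype and number as a random block, neither Fbn2 (adjusted p = 0.0723) nor Efemp1 (adjusted p = 0.0560) passed by limma, which left 3 genes of the list lower and 0 higher. Fbln2 (fibulin-2) was at -0.57 ± 0.17 (limma adjusted p = 0.0670, and 0.0209 with the replicate number as a block). The elastin cross-linking enzyme Lox (0.06 ± 0.15) did not pass.

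**Figure D2:**
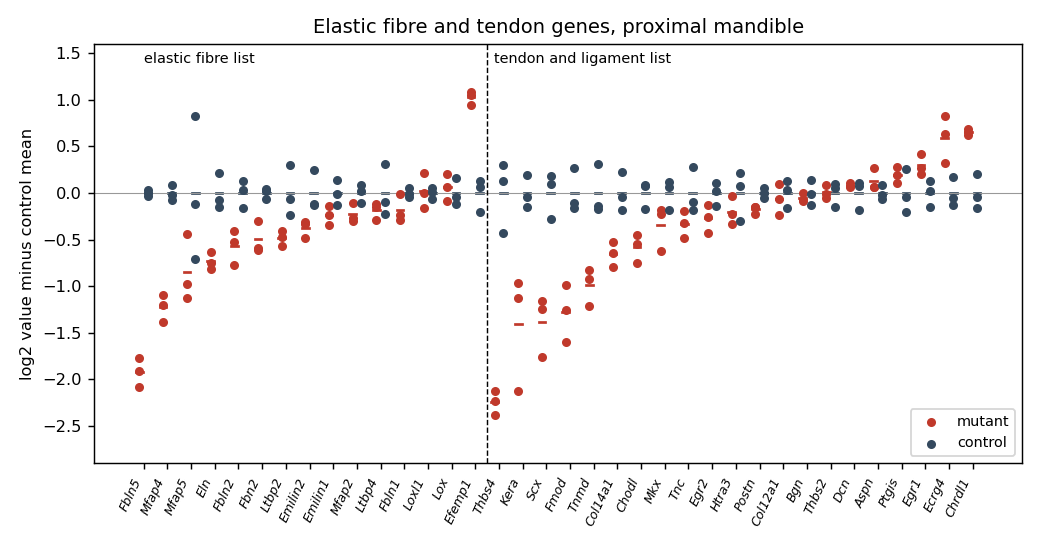
Values of the tested elastic fibre genes (left of the dashed line) and tendon and ligament genes (right), each relative to its control mean (log2), with mutants left in red and controls right in dark blue. Points are arrays and bars are means of 3. Fbln5, Mfap4 and Eln on the left and Thbs4, Scx and Fmod on the right have all mutants below all controls, and Efemp1 has all mutants above.

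Of 21 tested tendon and ligament genes 3 fell (against 3.07% of all genes) and 0 rose, with a median difference of -0.20. Scx, the transcription factor that marks tendon progenitors, read 6.42, 6.93 and 7.02 in mutants, against 7.90, 8.36 and 8.27 in controls. The mutants sat at about the array median (6.95) and all below the controls, and Scx fell by 1.39 ± 0.20 (limma adjusted p = 0.00130). Fmod, the tendon proteoglycan fibromodulin, read 9.04, 9.39 and 9.65 in mutants, against 10.91, 10.53 and 10.48 in controls. The groups did not overlap, and all 6 Fmod probe sets passed, the one used here at -1.28 ± 0.27 (limma adjusted p = 0.0132). The Fmod call was lost without mutant 1 (-1.12, adjusted p = 0.0720) or control 1 (-1.15, adjusted p = 0.0575). Thbs4, a matricellular protein of tendon and its muscle attachment, read 8.86, 8.60 and 8.76 in mutants, against 11.28, 10.56 and 11.11 in controls. Its groups were the furthest apart of the list, at -2.24 ± 0.62, but its limma adjusted p of 0.0480 did not hold on leaving out any 1 of the 6 arrays (-2.09 to -2.45). Tnmd, the membrane protein tenomodulin of mature tendon, differed by -0.98 ± 0.28 (limma adjusted p = 0.0507, and 0.0255 with the replicate number as a block). Kera, the proteoglycan keratocan, was at -1.41 ± 0.46 (limma adjusted p = 0.0863), and Mkx, a tendon transcription factor, at -0.34 ± 0.30. Not all of the list was lower: 7 of the 21 genes had differences above 0, up to 0.66 for the BMP antagonist Chrdl1 (limma adjusted p = 0.108). The contractile muscle list had a median of -1.03 in the same comparison. In the fit with the muscle and cartilage list means as covariates Scx and Fmod passed. The part of muscle content in the tendon differences was not tested.

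Fabp4, a fatty-acid binding protein of fat cells and capillary endothelium, showed the largest fall. It read 5.50, 6.36 and 6.13 in mutants, below the array median, against 9.38, 8.80 and 10.01 in controls. The groups did not overlap. Fabp4 fell by 3.40 ± 0.47 (limma adjusted p = 0.00111) and passed in the 20 alternative runs that tested it. Cd36, a fatty-acid transporter of the same cell types, read 7.31, 7.53 and 7.66 in mutants, against 8.53, 8.22 and 9.05 in controls. It fell by 1.10 ± 0.27 (limma adjusted p = 0.0299) but not past the threshold without mutant 1, mutant 2, control 1 or control 3 (-0.88 to -1.14). The remaining 17 of 19 tested adipogenic genes did not pass, so 10.5% were called, against 4.34% of all genes. Pparg, the master regulator of fat cell formation, was at 0.67 ± 0.22 (limma adjusted p = 0.0964).

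Of 24 tested endothelial genes 3 fell (against 3.07% of all genes), 1 rose (Eng, against 1.27%) and 20 did not pass. Kdr, the main receptor for vascular endothelial growth factor, read 9.13, 9.20 and 9.36 in mutants, against 9.67, 9.63 and 9.73 in controls. All mutants were below all controls, by 0.44 ± 0.09 (limma adjusted p = 0.0103), a call lost without mutant 1 (-0.40) or control 3 (-0.42). The tight junction gene Cldn5 differed by -0.60 ± 0.14 (limma adjusted p = 0.0226), a call lost without mutant 1, mutant 3, control 1 or control 3 (-0.56 to -0.61). The transcription factor Erg differed by -0.59 ± 0.15 (limma adjusted p = 0.0355), a call lost without mutant 1 or any 1 of the controls (-0.43 to -0.68). The pan-endothelial genes Pecam1 (0.17 ± 0.10) and Cdh5 (0.14 ± 0.08) did not pass and were above 0. The mean of the endothelial list lay between 9.31 and 9.43 in mutants and between 9.41 and 9.54 in controls, so the groups overlapped.

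Beyond the lists, several of the largest falls were in matrix and signalling genes. Cilp, a secreted matrix protein first known from cartilage, read 6.17, 6.05 and 6.53 in mutants, against 8.65, 8.42 and 8.44 in controls. The mutants lay below the array median and all below the controls, by 2.25 ± 0.24 (limma adjusted p = 6.0e-05). Angptl1, a secreted protein related to the angiopoietins, read 8.84, 9.21 and 9.30 in mutants, against 10.63, 10.54 and 10.54 in controls. It fell by 1.45 ± 0.13 (limma adjusted p = 1.0e-05). Grem1, the BMP antagonist gremlin, read 6.72, 7.15 and 7.08 in mutants, against 8.12, 8.78 and 8.67 in controls. The groups did not overlap, and Grem1 fell by 1.54 ± 0.21 (limma adjusted p = 0.000704). Kcna5, a potassium channel subunit, fell by 1.88 ± 0.30 (limma adjusted p = 0.00283). Cilp, Angptl1, Grem1 and Kcna5 passed in every alternative run that tested them (21 runs for Cilp and Grem1, 22 for Angptl1 and Kcna5).

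The rest of the 15 largest falls were mostly genes of skeletal muscle. Ckm, muscle creatine kinase, read 7.08, 6.76 and 6.89 in mutants, against 10.40, 8.49 and 10.48 in controls. The groups did not overlap, but control 2 lay well below the other controls, and the fall of 2.88 ± 0.59 (limma adjusted p = 0.0118) was not called without control 1 (-2.58) or control 3 (-2.53). Atp1b4, a protein of the muscle inner nuclear membrane, fell by 3.18 ± 0.57 (limma adjusted p = 0.00552) in the same pattern and passed in the 21 alternatives that tested it. Of 36 tested genes of the contractile list, all 36 had differences below 0, with a median of -1.03. Only Ckm of the list passed (2.78%, against 4.34% of all genes). In 13 of the 36 the groups did not overlap, against 15.4% of all genes with no overlap and lower mutants. The further large falls Myh7, a slow myosin heavy chain (-2.37), Csrp3, a Z-disc protein (-2.12), Sh3bgr (-2.06) and Ankrd1, a stretch-responsive titin-binding protein (-1.68), did not pass without control 3, mutant 1, mutant 2 or control 1, nor, for Csrp3 and Sh3bgr, without mutant 3. Over these removals Myh7 lay between -2.03 and -2.49, Csrp3 between -1.66 and -2.31, Sh3bgr between -1.74 and -2.14 and Ankrd1 between -1.20 and -1.69, with the smallest difference of each without control 3. Trdn (-1.34), Tcap (-0.98), Myl3 (-0.70) and Nrap (-0.66), outside the list and picked after their values were seen, also passed. Each of these calls was lost without control 1 or control 3. The myogenic regulators Myod1 (-0.50 ± 0.51) and Myog (-0.13 ± 0.68) did not pass. The sodium channel subunit Scn3b fell by 1.63 ± 0.34 and was not called without control 3 (-1.10) or mutant 1 (-1.57).

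Isl1, a transcription factor of jaw mesenchyme, motor neurons and some muscle precursors, read 6.16, 6.55 and 6.36 in mutants, against 6.85, 7.78 and 9.34 in controls. The mutants were lower without overlap, by 1.63 ± 0.44 (limma adjusted p = 0.0437), but control 3, which also had the highest neuron list mean, set much of the difference. Without control 3 the difference was -0.96 (adjusted p = 0.221), and the call was also lost without mutant 1, mutant 2, mutant 3 or control 2 (-1.53 to -1.74). Of 17 genes of the neuron list, 16 were below 0 and Isl1 alone passed (5.88%, against 4.34% of all genes). Outside the list, Snap91 (-1.33), Nap1l2 (-1.31), Zcchc12 (-1.10) and Aplp1 (-0.76) also passed, picked after their values were seen. Each of these calls was lost without mutant 1 or control 3. The part of nerve tissue in this result was not tested.

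The largest rises included the matrix genes Vit and Sned1 and several enzymes and receptors. Vit encodes vitrin, a matrix protein with von Willebrand factor domains, and read 10.45, 10.34 and 10.43 in mutants, against 8.79, 9.02 and 8.73 in controls. It rose by 1.56 ± 0.17 (limma adjusted p = 6.0e-05), or 2.95-fold, with no overlap. Sned1, another secreted matrix protein, read 9.82, 10.08 and 9.78 in mutants, against 8.22, 8.29 and 8.01 in controls, a rise of 1.72 ± 0.24 (limma adjusted p = 0.00112). Fam162b had the largest rise, to 8.88, 9.29 and 9.21 in mutants, against 7.25, 7.24 and 7.33 in controls (1.85 ± 0.26, limma adjusted p = 0.00106). Epha5, an Eph receptor tyrosine kinase, read 7.89, 8.53 and 8.49 in mutants, against 6.61, 7.04 and 7.29 in controls. It rose by 1.32 ± 0.24 (limma adjusted p = 0.00535), and its 3 tested probe sets all passed. Enpep, an aminopeptidase that cleaves angiotensin II, read 11.03, 11.21 and 11.22 in mutants, against 9.81, 10.06 and 9.85 in controls (1.25 ± 0.23, limma adjusted p = 0.00672). Agt, the precursor of angiotensin, read 7.68, 7.71 and 7.53 in mutants, against 6.89, 6.61 and 6.67 in controls (0.91 ± 0.13, limma adjusted p = 0.00130).

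Fam162b, Sned1, Vit, Epha5, Enpep, Agt, Slc9b2, Zfp804a, Pygl and Iigp1 passed in every alternative run that tested them. Sned1, Vit, Enpep and Pygl were tested in 22 runs, Fam162b, Epha5, Agt, Slc9b2 and Iigp1 in 21 and Zfp804a in 20. Slc9b2, a sodium-proton exchanger, rose by 1.24, the zinc finger gene Zfp804a by 1.22 and the interferon-inducible GTPase Iigp1 by 1.17. A2m, a broad protease inhibitor, rose by 1.31 ± 0.23. The osteoprotegerin gene Tnfrsf11b, which encodes a decoy receptor that limits osteoclast formation, rose by 1.38 ± 0.32 (limma adjusted p = 0.0219), a call lost without mutant 1, mutant 3, control 2 or control 3 (1.25 to 1.41). The copper-binding ferroxidase Cp (1.43 ± 0.37) was no longer called on leaving out any 1 of the 6 arrays (1.35 to 1.54). The prostaglandin receptor Ptger2 (1.23 ± 0.29) was not called without mutant 1, mutant 3, control 2 or control 3 (1.06 to 1.34), the neuronal adhesion protein Lrfn5 (1.28 ± 0.30) without mutant 3, control 1 or control 3 (1.11 to 1.22), and Mfsd4a (1.11 ± 0.28) without mutant 2, mutant 3, control 1 or control 3 (0.87 to 1.17).

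**Figure D3:**
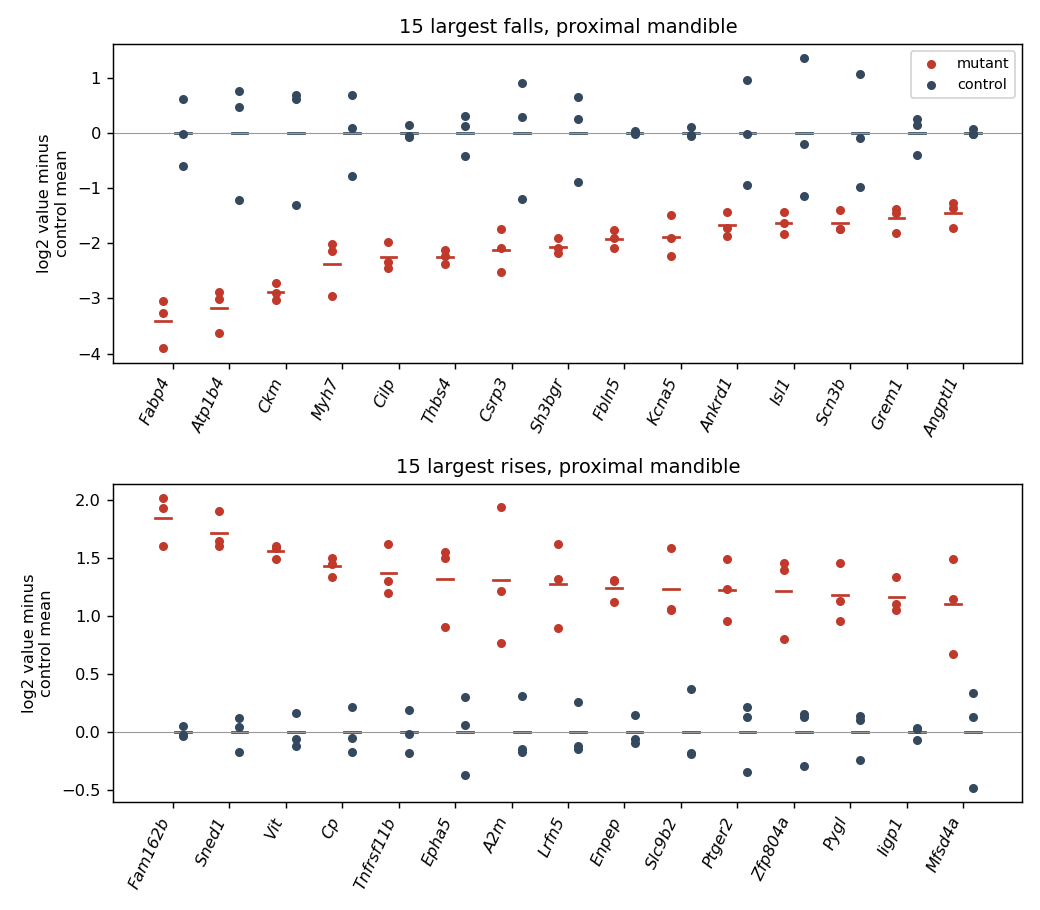
The 15 largest falls (top) and 15 largest rises (bottom) among genes that passed and whose groups do not overlap, each relative to its control mean (log2), with mutants left in red and controls right in dark blue. Points are arrays and bars are means of 3. The controls of Fbln5, Cilp, Kcna5 and Angptl1 lie close together, whereas those of Ckm, Csrp3 and Isl1 are widely spread.

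Cell cycle genes fell by small amounts. Of 32 tested genes of DNA replication and S phase 17 fell and 0 rose (against 3.07% lower among all genes), with a median difference of -0.27. Of 29 tested genes of mitosis and the spindle 20 fell and 0 rose, with a median of -0.33, and all 61 genes of both lists had differences below 0. Mki67, a marker of cycling cells, read 11.80, 11.75 and 12.03 in mutants, against 12.19, 12.16 and 12.26 in controls. All mutants lay below all controls, by 0.34 ± 0.07 (limma adjusted p = 0.00948). Top2a, the topoisomerase that untangles chromosomes before division, read 11.97, 12.09 and 12.15 in mutants, against 12.37, 12.37 and 12.40 in controls, a fall of 0.31 ± 0.07 (limma adjusted p = 0.0140). Cenpf, a kinetochore protein, read 10.20, 10.34 and 10.54 in mutants, against 10.74, 10.90 and 10.93 in controls, a fall of 0.50 ± 0.09 (limma adjusted p = 0.00685).

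The other mitosis genes that fell were the chromosomal passenger genes Birc5, Cdca8 and Aurkb, the kinesins Kif11, Kif20a and Kif23, the checkpoint genes Bub1 and Bub1b, the cyclins Ccna2 and Ccnb2, the kinetochore genes Cenpa, Cenpe and Ndc80, the cytokinesis genes Anln and Prc1, the kinase Aurka and the activator of the anaphase-promoting complex Cdc20, at -0.25 to -0.45. The mitotic kinase Plk1 was at -0.43 (limma adjusted p = 0.0551, and 0.0277 with the replicate number as a block). Of the S phase genes, the replication licensing factor Cdc6 differed most. It read 8.90, 9.40 and 9.48 in mutants, against 9.66, 9.85 and 9.95 in controls, a fall of 0.56 ± 0.13 (limma adjusted p = 0.0196). Cyclin E1 (Ccne1) fell by 0.46 ± 0.09, the origin recognition gene Orc1 by 0.43 ± 0.12 and the sliding clamp gene Pcna by 0.17 ± 0.04. The 2 tested probe sets of Orc1 disagreed (-0.43 to 0.06). The helicase genes Mcm2, Mcm3, Mcm5, Mcm6 and Mcm7 fell by 0.23 to 0.28, and so did 8 further genes (Rrm1, Rrm2, Gins1, Gins2, Cdt1, Fen1, Lig1 and Chaf1b, by 0.22 to 0.37). Of 5 tested Mcm3 probe sets 4 were lower, over a range of -0.40 to 0.23, and the 2 of Mcm6 lay at -0.24 and -0.01.

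These counts rested on the whole set of arrays. Without control 3, 2 S phase genes and 5 mitosis genes passed. Without mutant 1 there were 3 and 5, without control 2, 4 and 14, without control 1, 11 and 10, and without mutant 3, 10 and 15. With only the 6 proximal mandible arrays in the limma fit 0 of either list passed. In that fit 25 S phase and 27 mitosis genes had an unadjusted p under 0.05. The share over all genes was 19.5% in the fit of all 24 arrays and is not given here for the 6 arrays. With the replicate number as a block 27 of each passed in the fit of all 24 arrays, and 2 of each in the fit of the 6 arrays. With the muscle and cartilage list means as covariates there were 24 and 26, and after centring on the array median 8 and 13. Every array of the mutants had a lower list mean than every control array, at -0.25 to -0.06 against 0.08 to 0.17 for S phase and at -0.26 to -0.12 against 0.15 to 0.20 for mitosis.

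**Figure D4:**
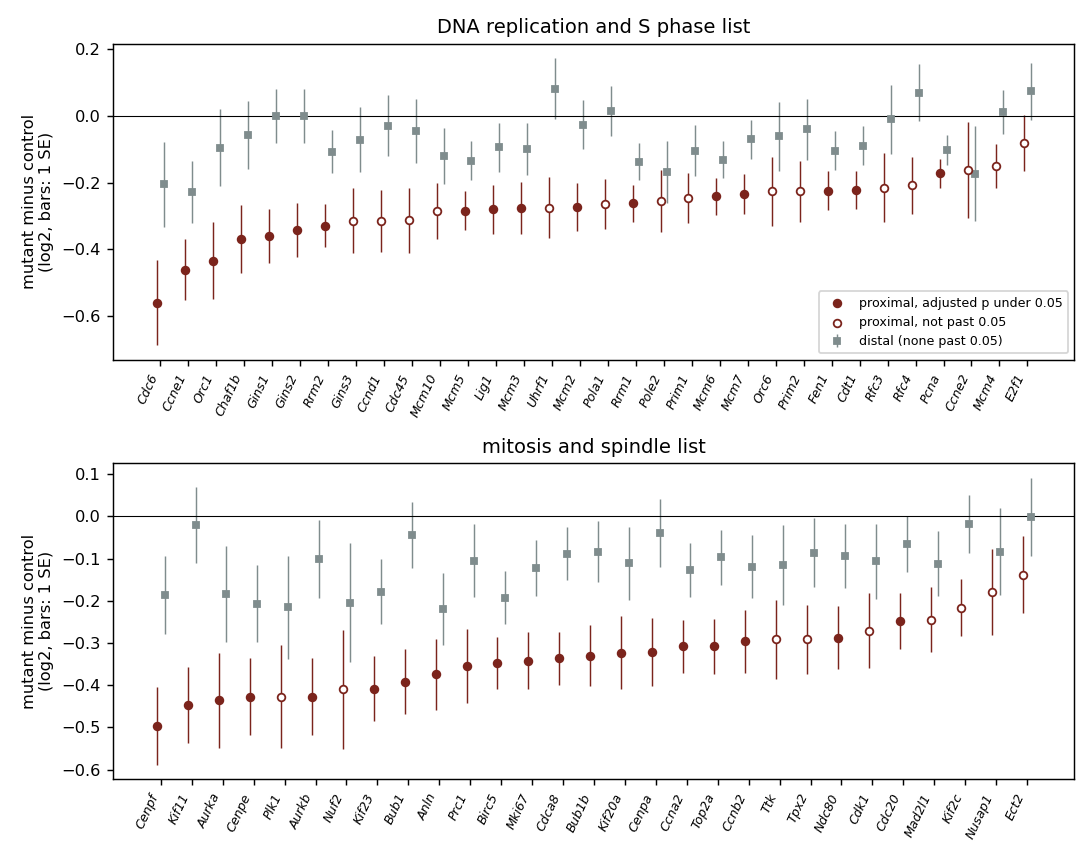
Mutant minus control difference (log2, bars 1 SE) of each tested gene of the S phase list (top) and the mitosis list (bottom), with the proximal mandible as dark red circles (filled where the adjusted p was under 0.05) and the distal mandible as grey squares. All proximal differences lie below 0, and no distal difference passed.

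Promoters of 3 mitosis genes that fell are shown because genes of this class are known to share short elements near their start, the cell cycle genes homology region (core TTTGAA), which the DREAM and MYB-MuvB complexes bind, and the CCAAT box, which NF-Y binds. The windows run from 250 bases before to 50 after the annotated start, from RefSeq (GRCm38.p6), and are given 5′ to 3′ on the strand of the gene. Capitals mark TTTGAA and CCAAT on either strand (TTCAAA and ATTGG). All 3 genes lie on the minus strand, Ccnb2 at chr9:70421505-70421804, Cdca8 at chr4:124936868-124937167 and Kif23 at chr9:61946750-61947049.
Ccnb2: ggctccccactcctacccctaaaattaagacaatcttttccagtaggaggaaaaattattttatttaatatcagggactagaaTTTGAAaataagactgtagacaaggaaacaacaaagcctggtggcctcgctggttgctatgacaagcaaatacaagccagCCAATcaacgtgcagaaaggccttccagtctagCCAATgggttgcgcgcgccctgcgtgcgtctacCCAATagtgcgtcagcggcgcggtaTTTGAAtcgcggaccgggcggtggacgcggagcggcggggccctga
Cdca8: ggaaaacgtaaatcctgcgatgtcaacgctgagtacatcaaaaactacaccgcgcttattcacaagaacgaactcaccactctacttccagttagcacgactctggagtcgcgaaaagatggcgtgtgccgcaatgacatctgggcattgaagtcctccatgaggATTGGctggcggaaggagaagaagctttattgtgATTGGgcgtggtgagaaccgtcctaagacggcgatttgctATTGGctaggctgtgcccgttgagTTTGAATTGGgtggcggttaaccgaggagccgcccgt
Kif23: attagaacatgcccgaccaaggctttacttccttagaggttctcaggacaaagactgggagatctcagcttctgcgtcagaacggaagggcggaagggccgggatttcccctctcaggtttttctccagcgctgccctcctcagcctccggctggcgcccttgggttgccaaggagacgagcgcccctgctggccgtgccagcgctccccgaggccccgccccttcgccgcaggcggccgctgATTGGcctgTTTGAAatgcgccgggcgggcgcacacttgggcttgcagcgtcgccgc
TTTGAA begins at base 255 of the Ccnb2 window (a further copy begins at base 84), at base 264 in Cdca8 and at base 253 in Kif23. In Cdca8 it overlaps an ATTGG by a base. Of the 20 mitosis genes that fell, 17 had an entry, and 14 of these held TTTGAA (82.4%) and 14 held CCAAT (82.4%). Of the 17 S phase genes that fell, 15 had an entry, of which 2 held TTTGAA (13.3%) and 9 held CCAAT (60.0%). Over the windows of all 27025 genes with an entry, 18.1% held TTTGAA and 37.9% held CCAAT. Over all tested mitosis genes with an entry the shares were 76.0% and 72.0%.

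Of 28 tested genes of the hypoxia response and glycolysis 4 rose (against 1.27% of all genes) and 0 fell, with a median of 0.18 and 24 above 0. Ankrd37, a target of hypoxia-inducible factor, read 8.97, 9.30 and 9.15 in mutants, against 8.35, 8.45 and 8.45 in controls. The groups did not overlap, and it rose by 0.72 ± 0.16 (limma adjusted p = 0.0176). Vegfa, the ligand of Kdr, read 9.82, 9.86 and 10.04 in mutants, against 9.61, 9.43 and 9.49 in controls, a rise of 0.40 ± 0.10 (limma adjusted p = 0.0276). Pdk1, a kinase that shuts off pyruvate dehydrogenase, rose by 0.38 ± 0.09, and Ddit4, a stress-induced inhibitor of mTORC1, by 0.37 ± 0.08. The calls of Vegfa, Pdk1 and Ddit4 were lost with only the 6 arrays in the fit and, as was that of Ankrd37, without control 3 (0.39, 0.31, 0.36 and 0.74). They were also lost without mutant 2 (0.64 for Ankrd37, 0.34 for Pdk1, 0.31 for Ddit4), mutant 1 (0.44 for Vegfa, 0.36 for Pdk1), control 1 (0.69 for Ankrd37, 0.35 for Ddit4), or control 2 (0.36) or mutant 3 (0.33) in the case of Vegfa. Bnip3, a mitophagy gene, was at 0.61 ± 0.19 (limma adjusted p = 0.0700).

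Skeletal genes moved less clearly. None of 23 cartilage genes passed by limma and 0 had an unadjusted p under 0.05, against 19.5% of all genes. With only the 6 proximal mandible arrays in the fit, 12 had one. The 19.5% belongs to the fit of all 24 arrays, and the share of all genes in the 6-array fit is not given here. The median difference of the list was 0.87, and 13 genes had all mutants above all controls (against 8.86% of all genes). Col2a1, the main cartilage collagen, read 13.51, 13.92 and 13.46 in mutants, against 13.27, 13.46 and 11.26 in controls, and the low value was control 3 (0.97 ± 1.06). The smallest limma adjusted p, 0.279, was that of Snorc, a proteoglycan of cartilage. Of 20 osteoblast genes Tnfrsf11b alone passed (5%, against 4.34% of all genes). The bone matrix gene Ibsp (0.33 ± 0.37) and the osteoblast transcription factor Sp7 (0.18 ± 0.22) did not. Of 11 osteoclast genes only Nfatc1, a transcription factor also made by endothelium, passed (9.09%, against 4.34% of all genes). Nfatc1 fell by 0.88 ± 0.20, but its 3 tested probe sets disagreed (-0.88 to 0.05). The call was lost without mutant 1, control 1 or control 2 (-0.73 to -0.87). Of 26 collagens outside cartilage only Col8a2, a short-chain collagen, passed (3.85%, against 4.34% of all genes). Col8a2 read 11.48, 11.55 and 11.76 in mutants, against 12.23, 12.39 and 12.19 in controls (-0.67 ± 0.13, limma adjusted p = 0.00711).

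Of 27 genes that pattern the jaw, Edn1 rose and Isl1 fell (7.41% called, against 4.34% of all genes). Edn1, the endothelin that sets lower-jaw identity, read 7.44, 7.45 and 7.38 in mutants, against 6.74, 6.98 and 6.98 in controls. It rose by 0.52 ± 0.13 (limma adjusted p = 0.0257), a call lost without mutant 1, mutant 2, control 1 or control 3 (0.44 to 0.56). The identity genes Dlx5 (0.01 ± 0.19) and Hand2 (-0.07 ± 0.37) did not pass. Of 29 neural crest mesenchyme transcription factors, Snai2 rose and the homeobox gene Meox1 fell (6.90% called, against 4.34% of all genes). Meox1 fell by 0.95 ± 0.20 (limma adjusted p = 0.0118) and was not called without mutant 1 (-0.94) or control 3 (-0.89). Of 32 BMP pathway genes Grem1 fell and the ligand Bmp2 rose (6.25% called, against 4.34% of all genes). Bmp2 rose by 0.47 ± 0.13, a call lost on leaving out any 1 of the 6 arrays (0.38 to 0.51). None of 37 Wnt, 18 hedgehog and 26 FGF pathway genes passed by limma. An unadjusted p under 0.05 was found for 8, 3 and 6 of them, against 19.5% of all genes. The nearest were the Wnt receptor Fzd4 (-0.55, adjusted p = 0.0674), the hedgehog receptor Ptch1 (0.38, adjusted p = 0.0760) and the ligand Fgf18 (-0.70, adjusted p = 0.0795). The Fzd4 result depended on the probe set. With every probe set tested, 1 of its 2 passed (-0.73 to -0.55), and the mean of its probe sets passed by limma (-0.56, adjusted p = 0.0259).

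Of 18 ephrin and Eph receptor genes Epha5 alone passed, of 13 jaw joint genes Erg alone, and of 16 myogenic genes Isl1 alone. These are 5.56%, 7.69% and 6.25% of the lists, against 4.34% of all genes. Of the macrophage, epithelial and glial lists 4.76%, 2.86% and 6.67% of the tested genes were called, near the 4.34% of all genes. Of 21 macrophage genes the purinergic receptor P2ry12 rose (0.63 ± 0.16), a call lost without mutant 2 or any 1 of the controls (0.43 to 0.69). The macrophage list was mixed, with 12 genes above 0 and 9 below. Mrc1 (-0.91), Lyve1 (-1.54) and Lyz2 (-0.87) were lower and did not pass. Of 35 epithelial genes Cdh3, P-cadherin, fell by 0.55 ± 0.12 (limma adjusted p = 0.0150), and did not pass without control 1 (-0.53) or control 3 (-0.56). Of 15 glial genes Cadm4, an adhesion molecule of Schwann cells, fell by 0.45 ± 0.12, a call lost on leaving out any 1 of the 6 arrays (-0.38 to -0.49). None of the 8 red blood cell, 8 salivary gland, 19 tooth germ, 12 smooth muscle, 9 otic and 22 immediate early genes passed by limma. Of them 1, 1, 3, 5, 0 and 4 had an unadjusted p under 0.05, against 19.5% of all genes. None of 11 olfactory genes passed either.

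**Figure D5:**
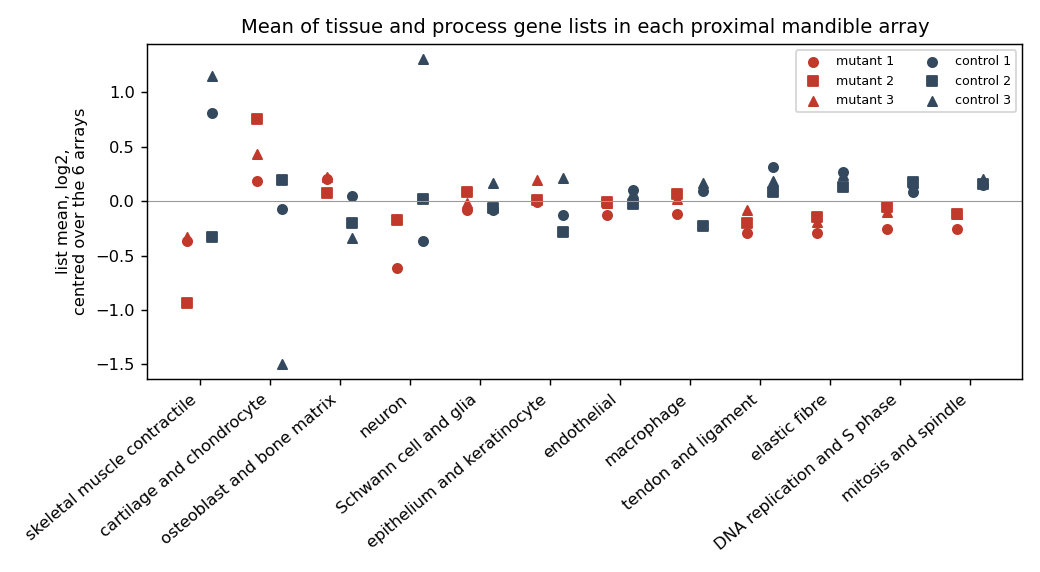
Mean of each gene list in each proximal mandible array (log2, centred over the 6 arrays), with mutants left in red and controls right in dark blue. Marker shape gives the replicate number. Control 3 is at -1.50 for cartilage and 1.30 for neuron, and the S phase, mitosis, elastic fibre and tendon lists have every mutant below every control.

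The distal mandible (the front of the lower jaw, also 3 mutants and 3 controls) was set beside the proximal one. Of the 556 proximal calls 44 were also called in the distal mandible in the same direction, which is 7.91% of the proximal calls and 46.3% of the 95 distal calls (0.742% of genes), and 0 were called in opposite directions. Of the 556, 479 (86.2%) had the same sign in the distal mandible, against 59.6% of all genes, and 518 had the larger difference in the proximal piece, where they were chosen. Same-numbered proximal and distal arrays deviated together from their group means (correlations of 0.35, 0.37 and 0.44 in mutants and 0.46, 0.54 and 0.53 in controls). The 2 ends are therefore not independent, and what this adds to the shared signs was not tested. Fbln5 differed by -1.43 ± 0.11 in the distal mandible, Angptl1 by -1.69 ± 0.13, Scx by -1.28 ± 0.20, Fabp4 by -2.74 ± 0.47, Tgfb2 by 0.54 ± 0.08, Vit by 1.46 ± 0.17 and Sned1 by 1.75 ± 0.24, and all 7 passed there by limma. The cell cycle lists had no distal call by limma, with 5 S phase and 4 mitosis genes at an unadjusted p under 0.05 and medians of -0.08 and -0.11. The share of all genes with such a p in the distal mandible was not counted. The cartilage list went in opposite directions, with a median of 0.87 in the proximal and -1.84 in the distal mandible. No cartilage gene was called at either end, and 9 had an unadjusted p under 0.05 in the distal mandible. For the difference between the ends 14 of the 23 had an unadjusted p under 0.05, 0 passed by limma and the smallest adjusted p was 0.499. Grem1 was at -0.64 ± 0.21 in the distal piece, Enpep at 0.21 ± 0.23, Pygl, the liver glycogen phosphorylase, at 0.44 ± 0.18 and Agt at -0.10 ± 0.13, and these did not pass there.

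When the difference between the ends was itself tested by limma, 0 genes passed, 1025 (8%) had an unadjusted p under 0.05 and the smallest adjusted p was 0.118. So no gene, the cell cycle lists included, was shown to respond differently at the proximal end in this fit. For this difference 9 of 32 S phase and 10 of 29 mitosis genes had an unadjusted p under 0.05, against 8% of all genes. The median proximal minus distal differences were -0.19 and -0.21. The count was 80 with array weights, 16 with a random block of the pieces of a genotype and number, and 11 with the mandible arrays alone. The genes nearest the threshold were Aspn, a small matrix proteoglycan, which differed by 0.13 ± 0.14 in the proximal and -1.08 ± 0.14 in the distal mandible (adjusted p of the difference 0.118 by limma), and Qrfpr, a neuropeptide receptor at background proximally (0.04 ± 0.17) that differed by 1.42 ± 0.17 distally. Agt, A2m, Tlx1, a homeobox gene, and Cdh3 followed, with proximal minus distal differences of 1.01, 1.64, -1.03 and -0.85 (limma adjusted p between 0.171 and 0.199).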

How the data were processed

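RNA from 24 jaw pieces (8 groups of 3 by genotype, jaw and end) was measured on an Affymetrix mouse array from 5 µg of total RNA per sample, per the labels. The authors deposited 1 log2 value per probe set and array, and the submitters' processing notes name RMA, which background-corrects, normalizes and summarises probes, and Partek 6.6. The sources used here give neither their settings nor a genome build. The deposited log2 values lay between 3.44 and 14.8. Background can make up much of a low value and can so compress the changes of dim genes, which was not measured here. The number of arrays limits the precision.

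Probe sets were named with the platform annotation. Of 45101, 34958 had a single symbol, 932 had several and 9211 were unnamed here, and 34741 identifiers matched the RefSeq gene table. For each of 18193 genes the brightest probe set (by its mean on all 24 arrays) was used, and 12811 genes above their array's median on at least 3 of the 24 arrays were tested. All 24 arrays entered 1 limma 3.58.1 fit (R 4.3.3, lmFit and eBayes, two-sided, group means, 16 residual degrees of freedom), with Benjamini-Hochberg adjustment and a threshold of 0.05. SE is the fit's moderated standard error. The fit was tested on simulated data with independent noise on each array. That test does not cover arrays that vary together by replicate number or differ in tissue content.

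Named genes are Tgfbr2, the 15 largest rises and falls without overlap of the groups, list members that passed, up to 4 further members of a list, and the 3 smallest p-values each way between ends. Some members that did not pass, and the genes Agt, Gpr182, Ppp1r3b and others of the closing section, were chosen after their values were seen. The members and the 36 lists were chosen with earlier results of these data known.

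Mutant and control arrays with the same replicate number deviated together from their group means (correlations of 0.299, 0.324 and 0.297), so the numbers pair the samples by the data. Correlations between different numbers were at most -0.09. Deviations from a group mean cancel within the group, so these negative values are no independent contrast. No label says what a number stands for. No 2 arrays of a group were duplicates, since the closest pair differed by a root mean square of 0.180. Alternatives covered probe set choice, filters, scaling, array weights, covariates, blocks, the arrays in the fit and leaving out each array.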

Additional observations from a re-analysis of the deposited data

Results flagged for a closer look

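Among the named genes, 6 had all mutants on one side of all controls in the proximal mandible and on the other side in the distal mandible. Only the named genes were searched, so the share of all tested genes with this pattern was not counted. The difference between the ends was tested by limma and passed for none of the 6. The proximal minus distal difference was -0.85 for the epithelial cadherin Cdh3 (adjusted p = 0.199), -2.46 for Isl1 (adjusted p = 0.379) and -1.03 for the homeobox gene Tlx1 (adjusted p = 0.171). It was 1.26 for the lipoprotein lipase gene Lpl (adjusted p = 0.480), -0.80 for the neurotrophin receptor Ngfr (adjusted p = 0.418) and 0.79 for the bone proteoglycan Omd (adjusted p = 0.606).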

How the results depend on the processing

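Of 132 named genes that passed, 27 passed in every alternative that tested them, 32 in all but 1 to 3 and 73 in fewer, and none changed sign. At most 22 alternatives tested a gene, and some genes with low values were filtered out of some of them. The 556 calls became 162 with only the 6 proximal mandible arrays, 1693 with array weights, 1172 with muscle and cartilage list means as covariates and 125 to 535 on leaving out 1 array. Since the replicate numbers pair the samples, the fit with the replicate number as a fixed block is given beside the results it changes, and it gave 1356 calls. The test between ends gave 0 calls, and gave 11 with only the 12 mandible arrays, 80 with array weights, 1 with the fixed replicate block, 16 with the random replicate block and 0 to 5 on leaving out 1 array (5 without distal mutant 2, 1 without proximal mutant 3). Fits with fewer arrays have fewer residual degrees of freedom, and the cause of the other shifts was not tested. With the random replicate block 522 genes passed, 460 of them among the 556, and the calls of Tgfbr2, Eng, Thbs4, Fbn2, Efemp1, Isl1, Cd36, Bmp2, Cadm4, Fen1 and Mcm2 were lost (adjusted p between 0.0517 and 0.0723). The Xist and Y-linked covariates gave 428 and 546 calls. The counts of S phase, mitosis and elastic fibre genes under each alternative, and the Y-linked covariate, were added after seeing the data, and the elastic fibre count of genes that fell stayed between 3 and 6. Small differences near background are the least certain.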

Other observations

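The genes given here were picked after their values were seen, so they stand for themselves and not for a pathway or a cell type. Ppp1r3b, a subunit that directs protein phosphatase 1 to glycogen, read 11.97, 12.28 and 12.23 in mutants, against 11.24, 11.32 and 11.20 in controls, and rose by 0.90 ± 0.10 (limma adjusted p = 6.0e-05). Its relative Ppp1r3c rose by 0.64 ± 0.12, and Pygl, which releases glucose from glycogen, read 10.18, 10.68 and 10.35 in mutants, against 9.32, 9.36 and 8.98 in controls (1.19 ± 0.18, limma adjusted p = 0.00143). Ppp1r3b, Ppp1r3c and Pygl passed in every alternative run. Khk, ketohexokinase, rose by 0.47 ± 0.07, and Pgm1, phosphoglucomutase, by 0.44 ± 0.09, with the Pgm1 call lost without control 3 (0.42).

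The classical complement proteases C1s1 (1.05 ± 0.17) and C1ra (0.94 ± 0.20) and their inhibitor Serping1 (0.79 ± 0.17) were higher in mutants by limma. C1ra was not called without control 2 (0.78), and Serping1 not without mutant 1, control 1 or control 2 (0.71 to 0.82). Both angiopoietins were higher, Angpt1 by 0.61 ± 0.16 and Angpt2 by 0.80 ± 0.19, but neither was called on leaving out any 1 of the 6 arrays (0.53 to 0.67 for Angpt1 and 0.71 to 0.89 for Angpt2).

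Of the endothelial list, 20 of 24 tested genes did not pass, and Pecam1, Cdh5 and Emcn were above 0 (0.17, 0.14 and 0.35). Sox18, a further endothelial transcription factor, was at -0.11 ± 0.18 (limma adjusted p = 0.791). Gpr182, a receptor of lymphatic and sinusoidal endothelium, read 6.58, 6.66 and 6.73 in mutants, against 7.64, 7.37 and 7.21 in controls (-0.75 ± 0.11, limma adjusted p = 0.00159), and passed in the 21 alternatives that tested it. The adhesion molecule Icam2 fell by 0.50 ± 0.10, the transcription regulator Lmo2 by 0.50 ± 0.11, the caveolin Cav1 by 0.54 ± 0.13 and endothelial nitric oxide synthase Nos3 by 0.38 ± 0.10. Icam2 was not called without mutant 1 (-0.43) or control 3 (-0.44), and Lmo2 not without mutant 1 (-0.50) or control 3 (-0.45). Cav1 was not called without mutant 1, mutant 3, control 1 or control 3 (-0.50 to -0.55), and Nos3 not without mutant 1 or any 1 of the controls (-0.30 to -0.42).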
